A study of Arabidopsis thaliana with 24 samples.

Results

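Newly synthesized (NS) RNA is the RNA that seedlings made while they were supplied with 4-thiouracil (4SU), a base analog that plants take up and build into new transcripts, so that these can be tagged with biotin and held on a streptavidin column. The 6 arrays of the column-bound fraction are compared here, 3 from Arabidopsis seedlings kept at 27°C and 3 from seedlings kept at 17°C, out of 24 arrays in all. They were chosen by their sample labels alone. The remaining 18 arrays hold total RNA at the start of labeling (time 0), total RNA at its end and the unlabeled, pre-existing (PE) RNA, each with 3 biological replicates per temperature.

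All groups were whole Columbia seedlings, 10 days old by the labels, germinated at 22°C, grown for 7 days at 27°C or 17°C in 12 hours of light and 12 of darkness, and floated on liquid medium for 12 hours before the experiment. The 27°C NS group was labeled for 1 hour and the 17°C NS group for 2 hours from about dawn. The labels give 1.5 mM 4SU for both, while the methods say that concentrations were fitted to each condition. Temperature, labeling time and any difference in 4SU therefore cannot be told apart. Signals come from ATH1 arrays and each array was scaled to the same trimmed mean of 500, so a fold change compares shares of the labeled RNA and not amounts made. In whole seedlings, fewer cells of a type and less RNA per cell cannot be told apart either.

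Plants adjust to temperature largely through gene expression. Heat shock factors switch on genes for chaperones, the proteins that keep others folded. PIF transcription factors drive elongation growth through auxin and cell wall genes, and cold acclimation genes such as COR15A and the dehydrins are active in the cool. A total RNA level adds up past synthesis and decay, whereas the labeled fraction is weighted toward transcripts made in the last hour or so, and it can also be read for genes without a half-life.

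Of 22746 probe sets, 14527 had a mean log2 NS signal of at least 6 and were tested with limma. At an adjusted p under 0.01 and a fold above 1.5, 436 were higher at 27°C (3.00% of those tested) and 672 were lower (4.63%). The median log2 fold change over all tested probe sets was −0.005, and 71 rises and 92 falls were at least 4-fold. All 27°C arrays lay on one side of all 17°C arrays for every called probe set, as they also did for 20.1% of tested probe sets upward and 20.1% downward. Among the called, 237 higher and 363 lower probe sets could be named with 1 gene. The floor matters to these counts: with all 22746 probe sets in the fit, 0 passed in either direction by limma, although 2407 positive and 2615 negative changes had an unadjusted p under 0.05. The largest changes in both directions, 7.23 and −5.53 on the log2 scale, belong to probe sets without a single named gene.

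Replicates correlated at 0.966 to 0.972 within the 27°C NS group and at 0.961 to 0.975 within the 17°C NS group, against 0.897 to 0.922 between temperatures (Pearson's r of log2 signal over the tested probe sets). The 3′ to 5′ signal ratio of actin was 12.1 to 22.4 on 27°C NS arrays and 5.51 to 18.4 on 17°C NS arrays, and 2.49 to 5.26 on the 18 arrays of other RNA. The 25S rRNA probe set read 2724 to 6366 at 27°C and 5904 to 7693 at 17°C in NS RNA. The part of these differences in the results was not tested. No named probe set represented the 5 flower or the 4 seed storage markers fixed as tissues that seedlings should lack. The 3 root markers measured (log2 changes of −0.27 to 0.10) and the 8 light harvesting and carbon fixation genes (−0.18 to 0.25) showed no called change. The counts of calls depend on single arrays: they were 222 and 382 (higher and lower) without 27°C replicate 1, 256 and 500 without 27°C replicate 2, 179 and 342 without 27°C replicate 3, 162 and 229 without 17°C replicate 2, and 191 and 295 without 17°C replicate 3.

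**Figure D1:**
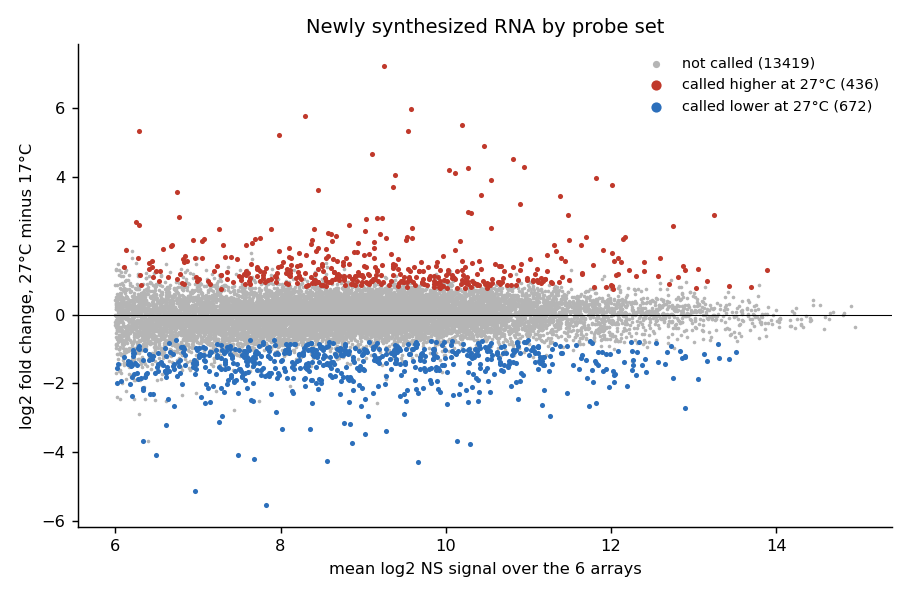
Log2 fold change of NS RNA (27°C minus 17°C, vertical axis) against the mean log2 NS signal over the 6 arrays (horizontal axis), 1 point per tested probe set. The 436 probe sets called higher reach 7.23 and the 672 called lower reach −5.53, while most of the 13419 others lie close to 0.

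Heat shock and chaperone genes had the highest median of the gene lists. The lists and their members were chosen with earlier results of these data known, so this ranking is a description. Of 33 genes listed, 11 had a named probe set above the floor. Of these, 9 were called higher in NS RNA at 27°C and 0 lower, with a median log2 change of 3.70. Over all tested probe sets 3.00% were called higher and 4.63% lower. AT1G53540, a small heat shock protein gene by the list used here, had NS signals of 1145, 3135 and 3518 at 27°C, against 48.3, 28.6 and 54.5 at 17°C. Every 27°C array was at least 21.0-fold above every 17°C array, and the log2 change was 5.79 ± 0.41 (SE, n = 3 each, adjusted p = 8.4e-05). The low 17°C signals leave the exact size of this fold uncertain.

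AT5G48570, listed in the reference also as ROF2 or FKBP65, an FKBP-type co-chaperone, read 6848, 8938 and 11077 at 27°C, against 486, 330 and 548 at 17°C. These groups lay far apart, with a log2 change of 4.30 ± 0.24 (adjusted p = 3.3e-05). Hop3, which links Hsp70 to Hsp90, read 2166, 2433 and 3874 at 27°C, against 182, 107 and 225 at 17°C, a log2 change of 4.06 ± 0.31 (adjusted p = 0.00011). AT5G37670, another small heat shock protein gene of the list, had 2078, 2890 and 3594 at 27°C, against 139, 99.0 and 92.3 at 17°C. Its log2 change was 4.68 ± 0.24 (adjusted p = 2.7e-05). AT1G54050 and AT2G29500 were 3.90 and 3.70 higher on the same scale, AT5G51440 2.97 and AT4G21870 1.29.

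The Hsp70 genes measured and a partner of theirs lay at the low end of the list. Hsp70-2 was 1.00 higher (adjusted p = 0.0029). AT3G09440, also an Hsp70 gene by the list, had NS signals of 12453, 14999 and 13776 at 27°C, against 12691, 12912 and 10262 at 17°C. The ranges overlapped and the log2 change of 0.20 missed the threshold (adjusted p = 0.42). Fes1A, an Hsp70 nucleotide exchange factor, had a change of 0.75 that also missed it (adjusted p = 0.019). The list had 8 or 9 calls whichever array was left out.

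The heat shock transcription factors that were measured showed no called change in the labeled RNA. Of 17 heat shock transcription factors, 4 were measured, and their log2 changes were −0.28 (RHA1), −0.03 (HSF3), 0.28 (HSF1) and 0.58 (HSFB2A, adjusted p = 0.049). HSF1 is a master activator of the heat response and HSFB2A belongs to the repressor class. The chaperone system of the endoplasmic reticulum was represented by 4 genes. BZIP17, BZIP28 and ATERDJ3B had changes of 0.74, 0.72 and 0.56 (adjusted p = 0.021, 0.027 and 0.029) and BZIP60 of −0.43, and 0 of the 4 were called. The shares called over all tested probe sets were 3.00% higher and 4.63% lower.

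Total RNA at time 0 came from other seedlings, harvested as 4SU was added. AT1G54050 then had signals of 153, 76.3 and 134 at 27°C, against 111, 151 and 66.3 at 17°C, which overlap (log2 change 0.17 ± 0.37, adjusted p = 0.75). At the end of labeling its total RNA was 2924, 2937 and 4593 at 27°C, against 214, 188 and 144 at 17°C. AT2G29500 likewise had a time 0 change of 0.49 (adjusted p = 0.10) beside its 3.70 in NS RNA. For AT5G48570 and Hop3 a difference was present at time 0 and was smaller than that of NS RNA in log2 units, 2.21 and 3.28. Hsp70-2 and AT3G09440 were the only members with a larger change at time 0 (1.92 and 1.52) than in NS RNA (1.00 and 0.20). Over the 11 genes the median change was 3.70 in NS RNA, 3.08 in PE RNA, 3.53 in total RNA at the end and 1.69 at time 0, with 9, 9, 9 and 5 genes called higher. Over all tested probe sets the shares called higher and lower were 1.52% and 2.24% in PE RNA and 2.44% and 3.28% in total RNA at the end. At time 0 they were 6.35% and 7.39%. The end, NS and PE arrays share their seedlings, so these 3 counts are not independent.

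**Figure D2:**
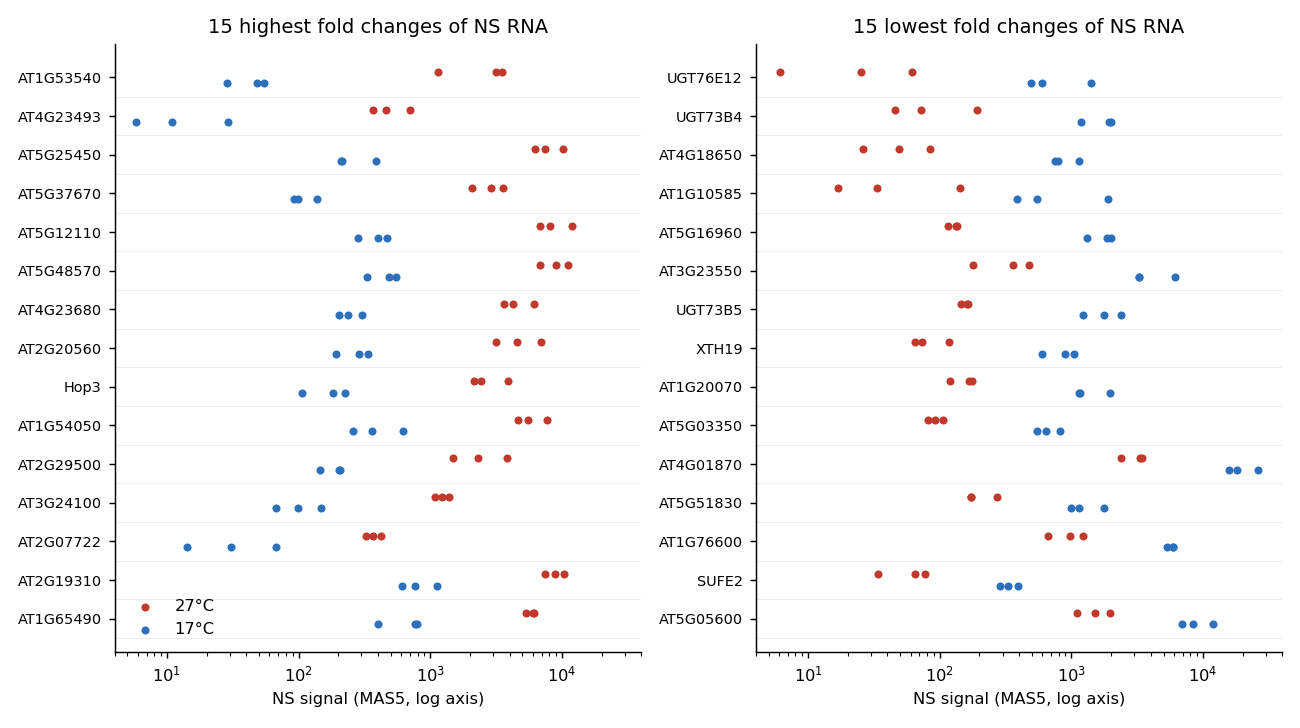
NS signal of each array (horizontal, log axis) for the 15 named genes with the highest and the 15 with the lowest fold change, 27°C above 17°C within a gene. The 3 arrays of each temperature form separate clusters in all 30 genes, which the choice of genes required.

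The 15 highest named genes, of which 6 belong to the chaperone list, changed by at least 9.34-fold. AT5G25450 had NS signals of 6258, 7380 and 10097 at 27°C, against 385, 213 and 211 at 17°C, a log2 change of 4.91 ± 0.27 (adjusted p = 3.3e-05). AT5G12110 read 6817, 8146 and 11840 at 27°C, against 470, 400 and 281 at 17°C (4.54 ± 0.26, adjusted p = 3.3e-05). The 27°C arrays were far above the 17°C arrays for both, whose 17°C signals still lay above the array medians of 191 to 196. AT4G23680 (4.22), AT2G20560 (4.13), AT3G24100 (3.62), AT2G19310 (3.44) and AT1G65490 (3.22) had smaller changes, all with adjusted p values of 0.00014 or less. AT4G23493 (5.32) and AT2G07722 (3.57) rested on 17°C signals of at most 29.3 and 67.9, so their folds are imprecise. AT2G07722 is measured by a probe set of the kind that can match more than 1 transcript. The reference gives no function for these loci.

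Some glycosyltransferase genes were among those with the lowest changes. UGT genes encode enzymes that attach a sugar to hormones, defense compounds and foreign small molecules. UGT76E12 had NS signals of 25.2, 61.5 and 6.1 at 27°C, against 1408, 594 and 492 at 17°C, a log2 change of −5.14 ± 0.73 (adjusted p = 0.0021). The 27°C signals are near the bottom of the scale, and this call was lost without 17°C replicate 2. UGT73B4 had 45.9, 192 and 72.5 at 27°C, against 1920, 1177 and 1996 at 17°C, and UGT73B5 144, 165 and 160 at 27°C, against 1777, 1229 and 2383 at 17°C. Their changes were −4.26 ± 0.46 (adjusted p = 0.00052) and −3.47 ± 0.24 (adjusted p = 8.4e-05).

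Of 32 genes with a UGT symbol that were tested, 10 were called lower at 27°C and 0 higher. Over all tested probe sets 4.63% were called lower and 3.00% higher. The median of the UGT genes was −0.61 against −0.005 over all probe sets. This group of genes with a UGT symbol was formed after its values were seen and is a description. Its called members include UGT73C1 (−1.97), UGT73B1 (−1.92), UGT71C2 (−1.64), UGT87A2 (−1.61) and UGT76C2 (−1.58), while UGT76B1 (0.99, adjusted p = 0.13) and UGT74F1 (0.81, adjusted p = 0.057) had the most positive changes. Without 17°C replicate 2 the count called lower was 6.

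Before labeling, the groups overlapped for several of these genes. At time 0 UGT73B4 had 101, 53.2 and 83.2 at 27°C, against 66.3, 77.6 and 75.3 at 17°C (log2 change 0.07 ± 0.24, adjusted p = 0.84). By the end its total RNA read 52.1, 93.2 and 32.4 at 27°C, against 736, 468 and 651 at 17°C. The temperatures were thus apart in the harvest after labeling, where the 17°C arrays were high, and not at time 0. UGT73B1 showed the same with little spread: 380, 412 and 418 at 27°C, against 471, 345 and 429 at 17°C, at time 0, and 960, 1064 and 921 at 27°C, against 3677, 3791 and 3665 at 17°C, in NS RNA. AT5G16960, which has no UGT symbol but is also among the 15 lowest genes, had a time 0 change of 0.39 (adjusted p = 0.31). Its change in NS RNA was −3.74 ± 0.20 (adjusted p = 2.7e-05). Over the 32 UGT genes the median at time 0 was 0.08.

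The PE signal of UGT73B4 at 17°C, 591, 290 and 476, lay above its total signal at time 0, although PE RNA is meant to predate labeling. Each array is scaled on its own, so these levels are not amounts. The half-life formula of the methods takes the logarithm of scaled PE RNA over total RNA at time 0, and it gives no positive half-life where scaled PE RNA is not the smaller.

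**Figure D3:**
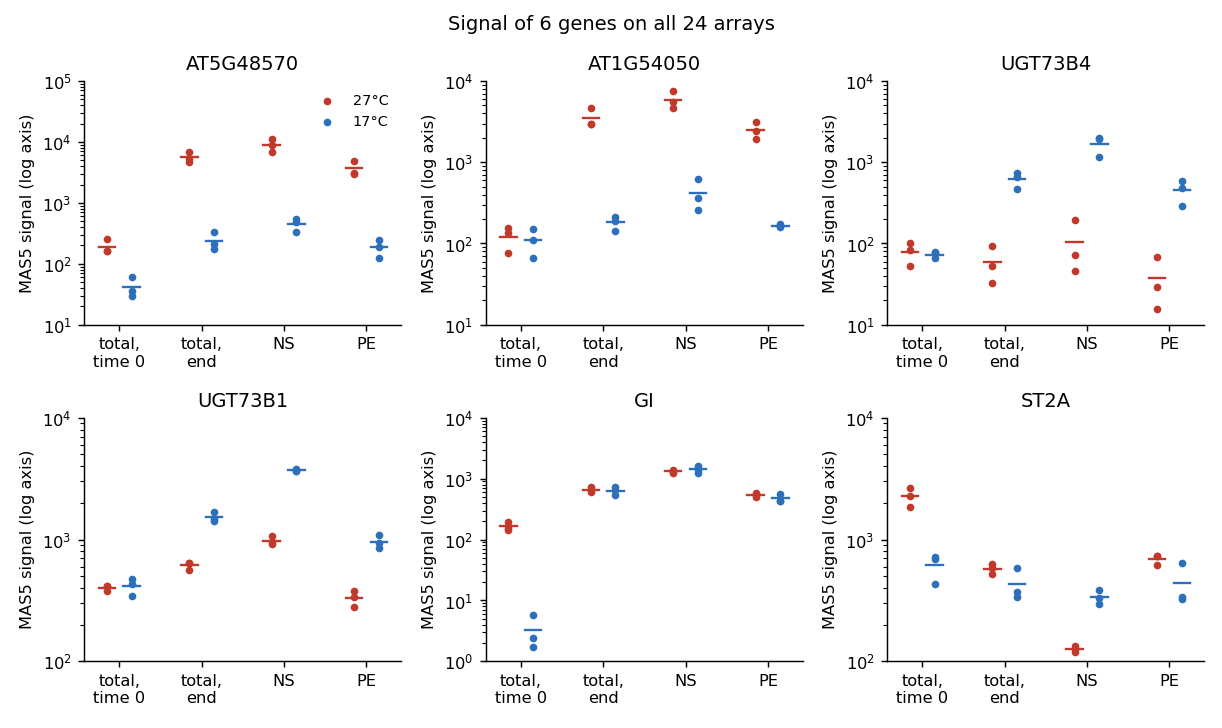
MAS5 signal (vertical, log axis) of 6 genes on all 24 arrays, 27°C left of 17°C for each kind of RNA, with points for arrays and bars for means. AT5G48570 and AT1G54050 are high in the 27°C arrays after labeling, UGT73B4 and UGT73B1 in the 17°C arrays, GI differs at time 0 only, and ST2A is lower at 27°C in NS RNA and higher at time 0.

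Other genes at the lower end had changes in the same range as the 3 lowest UGT genes or smaller. AT4G18650 had NS signals of 26.1, 49.1 and 83.5 at 27°C, against 749, 1145 and 786 at 17°C, a change of −4.21 ± 0.37 (adjusted p = 0.00023). AT3G23550, for which the study designed PCR primers, had 478, 360 and 179 at 27°C, against 6097, 3244 and 3256 at 17°C (−3.68 ± 0.37, adjusted p = 0.0004). Its groups were also apart at time 0, with a smaller change of −1.32. AT4G01870 had the brightest signals among the 15, 3285, 3452 and 2357 at 27°C, against 26172, 18117 and 15636 at 17°C (−2.71 ± 0.23, adjusted p = 0.00021). AT1G10585 (−4.09) spread widely, from 385 to 1903 at 17°C, and was called in only 1 of the 6 fits with an array left out. The remaining 7 genes, AT1G20070, AT5G03350, AT5G51830, AT1G76600, SUFE2, AT5G05600 and XTH19, had changes of −3.32 to −2.57. SUFE2, a sulfur transfer factor for iron-sulfur clusters, had a change of −2.58 in NS RNA and of −0.94 in total RNA at the end (adjusted p = 0.065).

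The other measured genes with primers changed less. AT4G38020 was 1.07 higher at 27°C on the log2 scale in NS RNA (adjusted p = 0.0048), a call lost when any array was left out, and AT1G19430 had a change of −0.27 (adjusted p = 0.39).

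Among genes of elongation growth, some wall enzymes were lower in the warm. Of 26 genes in the list of the PIF pathway and warm growth, 6 were measured, 3 were called lower and 0 higher. The share called lower over all tested probe sets was 4.63%. XTH19, a xyloglucan-cutting and rejoining enzyme of the cell wall, had NS signals of 117, 72.6 and 65.2 at 27°C, against 885, 1048 and 595 at 17°C (−3.32 ± 0.27, adjusted p = 0.00017). EXPA8, an expansin that loosens walls, had 267, 214 and 227 at 27°C, against 983, 858 and 813 at 17°C (−1.91 ± 0.17, adjusted p = 0.00021). XTH33, HYH and XTH15 had changes of 0.01, 0.18 and 0.36, none called. The members called are wall and sulfotransferase genes and not PIF factors, which had no named probe set here.

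ST2A, a sulfotransferase, was the third called gene of that list and had opposite signs in NS RNA and at time 0. Its NS signals were 126, 134 and 120 at 27°C, against 386, 333 and 294 at 17°C, a change of −1.41 ± 0.16 (adjusted p = 0.0008). Its total RNA at time 0 was 1863, 2653 and 2299 at 27°C, against 691, 720 and 428 at 17°C, a change of 1.91 ± 0.24 (adjusted p = 0.0022). The NS groups were apart in one direction and the time 0 groups in the other. At the end of labeling total RNA had 519, 632 and 584 at 27°C, against 587, 368 and 341 at 17°C, which overlap (0.46 ± 0.22, adjusted p = 0.19).

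The early auxin response list had 5 of 36 genes measured and 0 called, against 3.00% higher and 4.63% lower over all tested probe sets. All 5 changes were negative, from −1.11 for ATAUX2-11, an Aux/IAA repressor gene (adjusted p = 0.012), to −0.39 for GH3.3, an auxin-conjugating enzyme. TCH2, a touch-induced calmodulin-like gene, had a change of −0.75 (adjusted p = 0.031) and AOS of jasmonate synthesis one of 0.06. WRKY53, a stress-induced transcription factor, had 163, 137 and 167 at 27°C, against 65.3, 106 and 40.6 at 17°C, and its change of 1.24 missed the threshold (adjusted p = 0.022).

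Cold response genes were represented by 6 of 27, of which 1 was called lower, against 4.63% of all tested probe sets. LTI30, a dehydrin that protects cells from freezing and drying, had NS signals of 204, 249 and 214 at 27°C, against 1331, 1081 and 1276 at 17°C, and was the member called, with a change of −2.46 ± 0.17 (adjusted p = 8.4e-05). Its changes in total RNA were −2.24 at the end and −1.64 at time 0. COR15A, a chloroplast protein that stabilizes membranes in the cold, had NS signals of 80.3, 43.9 and 55.4 at 27°C, against 48.3, 125 and 109 at 17°C. These overlap (−0.59 ± 0.36, adjusted p = 0.28), although its total RNA at time 0 was 3.8, 2.6 and 19.2 at 27°C, against 106, 279 and 203 at 17°C. COR15B had a change of −1.21 that missed the threshold (adjusted p = 0.019), and COR47, STZ and HOS1 had changes of −0.29, −0.28 and 0.00.

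Clock genes were harvested at different times after dawn at the 2 temperatures. Of 29 listed, 10 were measured, 2 were called lower at 27°C and 0 higher, against 4.63% and 3.00% of all tested probe sets. CDF2, a repressor of flowering time genes, had 195, 271 and 239 at 27°C, against 484, 573 and 836 at 17°C (−1.40 ± 0.23, adjusted p = 0.0041), and RVE1, a morning MYB factor, 1421, 1458 and 1232 at 27°C, against 2177, 3558 and 3788 at 17°C (−1.17 ± 0.23, adjusted p = 0.0081). Leaving out 27°C replicate 1 or 3 or 17°C replicate 2 or 3 left neither called. TOC1, an evening component, had a change of −0.75 that missed the threshold (adjusted p = 0.16).

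GI, a light- and clock-controlled gene, showed nearly the same labeled RNA in both groups, 1307, 1413 and 1248 at 27°C, against 1407, 1613 and 1259 at 17°C (−0.10 ± 0.16, adjusted p = 0.69). At time 0 its total RNA had been 143, 157 and 192 at 27°C, against 2.4, 5.7 and 1.7 at 17°C, the 17°C signals being too low for a precise fold. By the end of labeling the groups overlapped again, at 610, 723 and 645 at 27°C, against 531, 734 and 645 at 17°C. GI, COR15A, COR15B, TOC1, WRKY53, XTH15, Fes1A, AT3G09440 and the histone genes named were singled out after their values were seen.

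**Figure D4:**
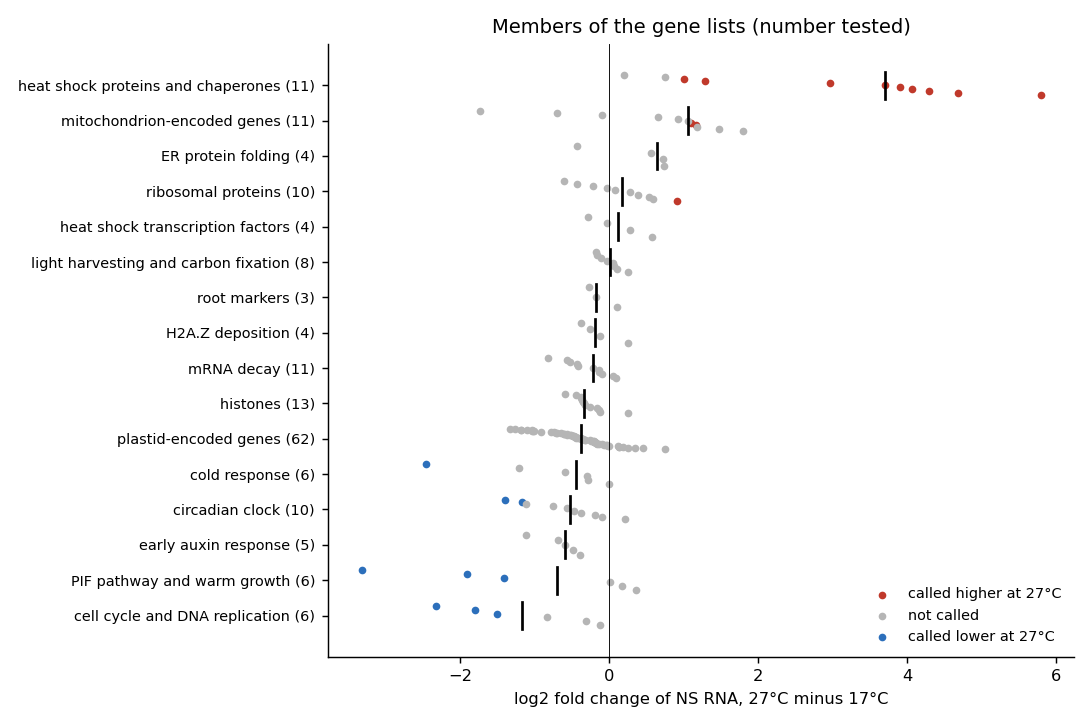
Log2 fold change of NS RNA (27°C minus 17°C) for each measured member of the gene lists with at least 3 tested members, called or not, with the list's median as a black bar. The heat shock list lies to the right with a median of 3.70, and the cell cycle list lies furthest left with −1.17.

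The cell division genes measured all had negative changes. Of 42 listed, 6 were measured, 3 were called lower and 0 higher, and the median was −1.17. Over all tested probe sets 4.63% were called lower. PRL (−0.83), E2F1 (−0.31) and CYCD3;2 (−0.12) were not called. Only 1 call of this list was left without 27°C replicate 1 or without 17°C replicate 2 or 3. CYCA1;1, a cyclin, had 113, 108 and 79.8 at 27°C, against 252, 456 and 357 at 17°C (−1.80 ± 0.24, adjusted p = 0.0016), and was called whichever array was left out. 3xHMG-box1, a chromatin protein of dividing cells, had a change of −2.32 and AUR1, a mitotic kinase, one of −1.51, and each was called in 2 of the 6 fits with an array left out. Histone genes were not called in NS RNA. Of 42 listed, 13 were measured, and 12 of their changes were negative, between −0.59 (HTB1, adjusted p = 0.044) and 0.26 (HTB4). At time 0, 6.35% of all tested probe sets were called higher at 27°C and 7.39% lower. Of the 13 histone genes, 7 were called higher then and 1 lower, with a median of 0.90. AT3G09480, for example, had 326, 294 and 367 at 27°C, against 59.4, 9.5 and 42.9 at 17°C, at time 0, and 134, 224 and 113 at 27°C, against 163, 121 and 219 at 17°C, in NS RNA.

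The lists of mRNA decay and of H2A.Z deposition had no called member, against 3.00% called higher and 4.63% lower over all tested probe sets. This held for 11 measured members of the mRNA decay list, with changes between −0.82 (UPF3 of nonsense-mediated decay, adjusted p = 0.049) and 0.09, and for 4 of H2A.Z deposition, between −0.37 (INO80) and 0.26. With 1 measured gene each, the low oxygen, flavonoid and flowering lists gave 0.13 (AT5G39890), 0.11 (UGT78D2) and −0.37 (FCA), none called. No SR splicing factor had a named probe set. Ribosomal protein genes were found by these words in their annotation, so genes without them were not counted. Of the 10 nuclear-encoded ones found, 1 was called higher, against 3.00% of all tested probe sets. It was AT5G56940 (0.91, adjusted p = 0.0083, lost when any array was left out). Their median was 0.18.

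UPP, annotated for uracil salvage and so close to the route of 4SU into RNA, had NS signals of 202, 168 and 184 at 27°C, against 222, 315 and 238 at 17°C (−0.47 ± 0.18, adjusted p = 0.10). In total RNA at the end it had 379, 332 and 273 at 27°C, against 783, 1204 and 870 at 17°C, a called change of −1.53. PORB, an enzyme of chlorophyll synthesis, had changes of −0.33 in NS RNA (adjusted p = 0.21) and −1.08 in total RNA at the end (adjusted p = 0.0046). The differences between the kinds of RNA, 1.05 and 0.75 when NS was divided by total RNA, missed the threshold (adjusted p = 0.067 and 0.072).

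Organelle transcripts were not all of one kind. Of 62 plastid-encoded genes tested, 0 were called in NS RNA at either end, 53 had negative changes, and the median was −0.37. The share called lower was 4.63% over all tested probe sets. rbcL, the large subunit of Rubisco, had 5007, 2190 and 2662 at 27°C, against 7430, 8788 and 7165 at 17°C, and its change of −1.33 missed the threshold (adjusted p = 0.012). Among 11 genes of the mitochondrion, 2 were called higher at 27°C and 0 lower, with a median of 1.06. The share called higher over all tested probe sets was 3.00%. nad1, a subunit of respiratory complex I, had 264, 294 and 295 at 27°C, against 141, 121 and 117 at 17°C (1.17 ± 0.16, adjusted p = 0.0016), and ccb452 a change of 1.10. Both calls were lost without 17°C replicate 2, ccb452 also without 3 other arrays, and quantile normalization raised the count to 7. The ccb452 probe set is of the kind that can match more than 1 transcript, and its annotation names a pseudogene, AT2G07723. Total RNA of the mitochondrial genes had medians of 1.20 at the end and 1.05 at time 0.

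The ratio of NS to total RNA of the same replicate asks where the labeled RNA differed between temperatures in another way than the total it was split from. None of the 14527 ratios was called (0% higher and 0% lower) by limma, while 2934 had an unadjusted p under 0.05 and the smallest adjusted p was 0.023. At an adjusted p under 0.05 there were 6 higher and 8 lower, of which 7 could be named, and these were singled out after their values were seen. All 14 missed that limit in 4 of the 6 fits with an array left out, where the smallest adjusted p was 0.08 to 0.14, and with the replicate block, where it was 0.16. AT5G01870 had NS signals of 195, 105 and 143 at 27°C, against 296, 291 and 264 at 17°C, but total signals of 226, 136 and 225 at 27°C, against 1565, 1365 and 1299 at 17°C. The log2 change was −0.98 in the labeled RNA and −2.88 in the total, with a log2 ratio change of 1.90 ± 0.18 (adjusted p = 0.023).

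AT2G20270 had labeled RNA that was higher at 27°C by 0.96 (322, 260 and 366 at 27°C, against 149, 159 and 176 at 17°C) while its total at the end had a change of −0.54, and the ratio changed by 1.50 (adjusted p = 0.036). In the opposite direction, AT2G43620 had total signals of 4130, 3810 and 3209 at 27°C, against 740, 496 and 289 at 17°C, but NS signals of 640, 597 and 558 at 27°C, against 406, 501 and 185 at 17°C (0.83, adjusted p = 0.10), a ratio change of −2.13 (adjusted p = 0.036). ST2A (−1.87), AT4G15260 (−2.11), AT1G12080 (−1.90) and AT1G62290 (−1.69) had the same sign of the ratio.

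**Figure D5:**
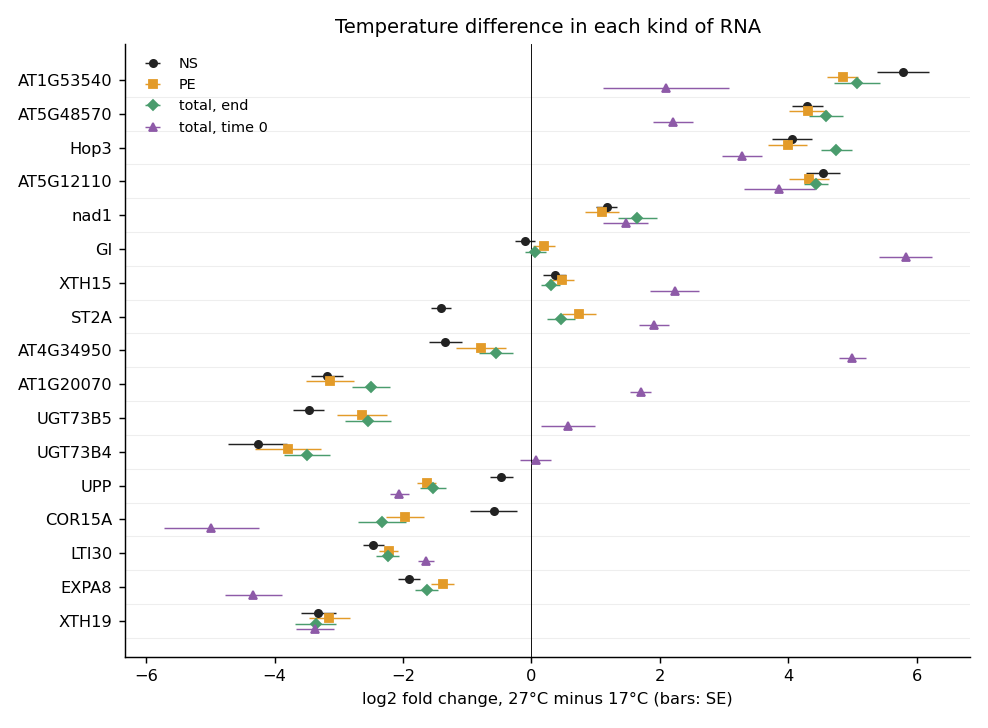
Log2 fold change (27°C minus 17°C, horizontal axis, bars SE of 3 against 3 arrays) of genes described in the text, in NS RNA, PE RNA and total RNA at the end and at time 0. NS RNA lies near 0 for GI, whose time 0 value is 5.83, and left of 0 for ST2A, AT4G34950 and AT1G20070, whose time 0 values are right of 0.

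Time 0 gave more calls than NS RNA, 922 higher (6.35%) and 1073 lower (7.39%) at 27°C. Of the 436 probe sets higher in NS RNA, 141 (32.3%) were also called higher at time 0 and 5 were called lower, and of the 672 lower ones 205 (30.5%) were lower at time 0 and 30 higher. As shares of the time 0 calls, the matching ones are 15.3% of the higher and 19.1% of the lower. The 35 opposite cases include 14 with a single named gene. AT4G34950 had total RNA of 1525, 1927 and 1374 at 27°C, against 62.1, 39.1 and 50.4 at 17°C, at time 0 (adjusted p = 0.00022), and NS RNA of 453, 791 and 426 at 27°C, against 1110, 1671 and 1347 at 17°C (−1.34 ± 0.26, adjusted p = 0.0085). AT1G20070 had 163, 131 and 145 at 27°C, against 37.9, 46.1 and 51.9 at 17°C, at time 0, and 168, 119 and 177 at 27°C, against 1164, 1955 and 1150 at 17°C, in NS RNA. These are different kinds of RNA on separately scaled arrays, so its levels cannot be compared between them, only its temperature differences. XYL4, a beta-xylosidase, had 1.25 at time 0 and −0.90 in NS RNA. In the other direction, AT1G22160 had a change of 1.15 in NS RNA, and its 27°C signals at time 0, 7.9, 5.3 and 7.6, were too low for a precise fold. These genes were singled out after their values were seen. Leaving out any array lost the NS calls of XYL4 and AT1G22160, and AT4G34950 kept its call in 1 of the 6 such fits, while AT1G20070 and ST2A kept theirs in all 6.

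Most probe sets called in NS RNA got no half-life by the stand-in used here. The methods removed genes by detection calls, which were not used here. In their place, probe sets were ranked by their lowest total RNA signal, and scaled PE RNA had to be below time 0 in every replicate at both temperatures, so the counts are those of this stand-in and not of the study. By it, 6041 of the 14527 tested probe sets (41.6%) had a half-life at both temperatures. Among those called higher in NS RNA these were 77 of 436 (17.7%), and among those called lower 236 of 672 (35.1%), against 42.7% of those not called. Of the 795 called without one, 564 were bright enough in total RNA and failed the comparison with time 0, and 231 were outside the probe sets that the ranking kept. By the stand-in, all 15 highest named genes and 14 of the 15 lowest had no half-life, AT3G23550 being the exception. AT5G51830, among these lowest genes, nevertheless has an entry in the study's own table of synthesis and decay rates. The stand-in uses total RNA and PE arrays of both temperatures and not the NS arrays, except through the scaling factor. PE RNA came from the same seedlings as NS RNA, however, so the calls and the half-life status are not independent.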

How the data were processed

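RNA of whole Arabidopsis seedlings was labeled with 4SU, biotinylated, separated into a bound (NS) and an unbound (PE) part and hybridized, with total RNA, to Affymetrix ATH1 arrays. The values deposited by the authors are linear signal intensities that MAS5 made from the probes of each probe set, the tool being named in the submitters' processing notes without a version. Each array has a trimmed mean of 500, so values carry no absolute RNA amounts. Arrays were grouped by their GEO labels. They are biological replicates by the methods, and p-values measure the spread between 3 and 3 of them, which limits precision.

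The 64 control probe sets were left out, leaving 22746 of 22810. Of these, 13513 were named with 1 gene by the platform annotation and 823 by the study's table of probe sets, 526 had several genes and 7884 none; symbols follow RefSeq's TAIR10.1 annotation. Log2 signals of the 6 NS arrays were fitted with limma 3.58.1 in R 4.3.3 (27°C minus 17°C) over probe sets with a mean log2 NS signal of at least 6, a geometric mean of 64. Calls needed a Benjamini-Hochberg adjusted p under 0.01 and a fold above 1.5. Total, PE and NS over total values were fitted likewise over the same probe sets. Half-life status used the correction factors and formula of the methods, with a rank on the lowest total RNA signal in place of their detection calls and with scaled PE RNA required to be below time 0 in every replicate. The fit was tested on simulated data. Tables and plots used Python 3.11.15, pandas 2.3.3, numpy 2.4.6 and matplotlib 3.10.9.

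Named genes are the 15 named genes with the highest and the 15 with the lowest fold change among those called, plus called and largest-changing members of gene lists. The members and lists were chosen with earlier results of these data known. Genes singled out after their values were seen are said to be so in the text. Alternatives covered the floor, the scaling, a pseudocount of 16, the variance prior, the threshold, the arrays in the fit, the replicate block and each array left out. Detection calls and promoter sequences were not used here.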

Additional observations from a re-analysis of the deposited data

How the results depend on the processing

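Compared with 436 higher and 672 lower probe sets at 27°C in NS RNA, the counts were 0 and 0 with no floor on low signal (smallest adjusted p 0.015), 1210 and 1528 at an adjusted p under 0.05, 1000 and 1026 with all 24 arrays in one fit, and 816 higher with a trended variance prior (983 lower). A floor of 7 gave 642 and 805, keeping the probe sets brightest in total RNA gave 426 and 533, quantile normalization 479 and 625, median centring 434 and 694, and a pseudocount of 16 gave 574 and 810. Leaving out 1 array gave 162 to 291 higher and 229 to 500 lower. The cause of these differences was not tested. The replicate block gave 262 higher and 489 lower. Deviations of arrays with the same replicate number correlated at −0.03, −0.08 and 0.11, so the numbers do not pair the samples.

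For the ratio of NS to total RNA, with 0 calls, the floor of 7 gave 5 higher and 5 lower, the brightest in total RNA 3 and 2, a pseudocount of 16 gave 3 and 5, an adjusted p under 0.05 gave 6 and 8, and an unpaired interaction 1 and 0. No called gene among those named changed sign under any alternative run, but AT5G39890, AT3G09480 and AT1G62290, which were not called and lay near 0, did. With the replicate block or without 27°C replicate 1 or 2 or 17°C replicate 1 or 3 no ratio reached an adjusted p under 0.05. Without the floor 56 of 87 named genes lost their call, which were all of those called. Quantile normalization or median centring changed no call among the 87. Low signals limit the folds of genes that are dim at one temperature.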
